A study of Homo sapiens with 9 samples.

Results

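The genes described here are 9 adhesion genes of leukocytes, chosen by name for this role: the integrin alpha chains ITGA4, ITGA5, ITGAL, ITGAM and ITGAX, the integrin beta chains ITGB1, ITGB2 and ITGB7, and SELPLG, the protein scaffold of the main leukocyte ligand of P-selectin. They are 9 of the 58735 genes in the deposited count table, and all 9 passed the filter on low counts, which kept 14975 genes. Polyadenylated RNA was sequenced from THP-1, an established human acute myeloid leukaemia line of monocytic type with the MLL-AF9 fusion. All cells were spinoculated with lentivirus made in 293T cells, were under puromycin from 24 hours and were harvested at 48 hours. The control group carried a non-targeting shRNA, and the other groups carried an shRNA against the transcription factor NFATC2, shRNA-143 or shRNA-146. Each group has 3 libraries, numbered 1 to 3 in the labels. The series calls the replicates biological, but no source used here ties them to separate cultures. A p-value here therefore speaks only of how these libraries vary, and part of that variation may be technical.

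An integrin is a pair of an alpha and a beta chain in the plasma membrane, and neither chain reaches the cell surface well without its partner. ITGA4 pairs with ITGB1 to form VLA-4, the receptor for VCAM1 and fibronectin, or with ITGB7 to form the receptor for MADCAM1, and ITGA5 pairs with ITGB1 to form the classical fibronectin receptor. ITGAL, ITGAM and ITGAX pair with ITGB2 to form LFA-1, Mac-1 (a complement receptor) and p150,95, which bind ICAMs, complement fragments and fibrinogen. SELPLG lets leukocytes roll on selectins once fucose, sialic acid and sulfate have been added to it, and integrins then arrest the cell. Monocytes use both steps to leave the blood, and leukaemic cells use VLA-4 to hold to marrow stroma.

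RefSeq promoter windows, 300 bases long, on GRCh38.p14, matched 5 of the 9 genes: ITGA4, ITGA5, ITGAM, ITGB1 and ITGB7. Against the deposited gene coordinates, the ITGA4 and ITGA5 windows lay mostly inside the gene, and the ITGB1 windows wholly inside it. Those of ITGAM and ITGB7 lay mostly before the gene. The windows of ITGA4 and ITGA5 are shown because these were the genes that passed the test with both shRNAs, and that of ITGB1 because it encodes their shared beta chain. Capitals mark GGAAA (the core of NFAT sites), GAGGAA (an ETS core found in PU.1 sites) and TGANTCA (AP-1, a usual partner of NFAT), on either strand, each window being read in the direction of its gene.
ITGA4, chr2:181457136-181457435, plus strand: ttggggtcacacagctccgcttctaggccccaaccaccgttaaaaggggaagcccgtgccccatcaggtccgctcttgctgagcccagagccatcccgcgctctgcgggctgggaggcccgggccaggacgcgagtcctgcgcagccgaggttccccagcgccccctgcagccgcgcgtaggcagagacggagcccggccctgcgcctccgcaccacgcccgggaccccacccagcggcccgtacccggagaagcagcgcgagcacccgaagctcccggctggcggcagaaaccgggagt
ITGA5, chr12:54419217-54419516, minus strand: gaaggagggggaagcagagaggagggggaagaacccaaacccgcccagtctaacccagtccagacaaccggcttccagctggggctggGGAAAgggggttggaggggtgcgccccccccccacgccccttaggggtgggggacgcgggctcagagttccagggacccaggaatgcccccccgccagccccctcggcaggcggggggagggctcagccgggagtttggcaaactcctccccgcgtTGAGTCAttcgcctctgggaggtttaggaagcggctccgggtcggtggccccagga
ITGB1, chr10:32958181-32958480, minus strand: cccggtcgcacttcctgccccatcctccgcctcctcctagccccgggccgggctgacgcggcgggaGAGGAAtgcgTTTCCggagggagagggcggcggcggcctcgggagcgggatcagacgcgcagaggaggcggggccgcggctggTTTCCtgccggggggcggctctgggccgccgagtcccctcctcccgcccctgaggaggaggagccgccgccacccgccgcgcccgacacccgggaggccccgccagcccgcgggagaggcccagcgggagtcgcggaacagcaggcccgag
The ITGA4 window held none of these motifs. The ITGA5 window held 1 GGAAA and 1 AP-1 match, and the ITGB1 window shown 2 GGAAA matches and 1 GAGGAA match. A second ITGB1 window of the same table, chr10:32935509-32935808, held none of the 3 motifs and 3 matches of TATAAA (the TATA box), which was present in 11.5% of all windows. GGAAA was present in 61.2% of 35116 promoter windows of this length, GAGGAA in 27.9% and TGANTCA in 7.71%. A GAGGAA followed by A would also hold a GGAAA. A match describes letters only, and no match says nothing about whether a factor binds. The GC content of the windows was 72.3% for ITGA4, 69.3% for ITGA5, 78.3% for the ITGB1 window shown and 40.7% for the second ITGB1 window, against a median of 58.7% over all windows.

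Library totals ran from 40047459 to 44669709 counts. NFATC2 stood at 12.7, 27.6 and 27.4 CPM (counts scaled to library size, after TMM normalization) in control replicates 1 to 3, at 1.49, 7.40 and 6.95 in the shRNA-143 libraries and at 2.59, 6.71 and 9.43 in those of shRNA-146, so no knockdown library reached a control library. The libraries numbered 1 stood apart from the rest in every group, and libraries that share a number deviated together. Results are therefore given from edgeR's quasi-likelihood test without and with the replicate number as a block, with p-values adjusted by Benjamini-Hochberg over the whole set of tested genes and a threshold of 0.05. With the block, NFATC2 had a log2 fold change of -2.27 ± 0.24 with shRNA-143 and -1.96 ± 0.23 with shRNA-146 (SE; adjusted p = 0.00168 and 0.00435). Without the block the values were -2.09 ± 0.64 and -1.85 ± 0.63 (adjusted p = 0.497 and 0.464), which did not pass. Of 20 monocytic marker genes 18 passed the filter. The highest levels were those of the granule genes ELANE at 2626 to 4462 CPM, CTSG at 919 to 2034 and AZU1 at 357 to 578, of LYZ at 193 to 406 and of the transcription factor IRF8 at 221 to 328. FCGR1A stood at 117 to 196 CPM and CSF1R at 53.9 to 116, while CD14 at 0.961 to 4.04 and CD68 at 0.102 to 0.538 were low and CD163 and MRC1 had at most 3 counts. Defining T cell genes were at or near 0 (CD3D and CD3E without a count, LCK at most 2 counts), as were MS4A1 of B cells and EPCAM of epithelium. The summed CPM was 11.2 to 26.4 for 12 T and NK cell markers, mostly NKG7, and 25.2 to 46.1 for 8 B cell markers, mostly CD79B. The summed CPM of the 10 epithelial and 293T-type markers was 84.3 to 95.9 in control, 121 to 137 with shRNA-143 and 126 to 189 with shRNA-146, nearly all of it LIN28B. Its part in the results below was not tested.

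Per unit of gene length, the beta chain of LFA-1 and Mac-1 was the most abundant transcript of the group in control. In the authors' FPKM (fragments scaled to gene length and library size), control levels were 54.2 ± 19.5 for ITGB2 (SD, n = 3), 22.6 ± 10.6 for ITGA5, 22.5 ± 5.79 for ITGB1, 15.3 ± 3.11 for SELPLG and 10.5 ± 2.95 for ITGA4. The lower genes were ITGAL at 4.57 ± 1.49, ITGAM at 2.04 ± 0.66, ITGB7 at 1.51 ± 0.50 and ITGAX at 0.213 ± 0.048. Neighbours in this order whose control ranges overlapped were ITGA5 and ITGB1, ITGB1 and SELPLG, SELPLG and ITGA4, and ITGAM and ITGB7. ITGB2 stood at percentile 94.2 of all tested genes and ITGAX at percentile 15.4. ITGA4 was below SELPLG in each control library. It was above SELPLG in 6 of 9 libraries, which were those with an shRNA against NFATC2. In bulk RNA, fewer cells with a transcript and less transcript per cell cannot be told apart.

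**Figure D1:**
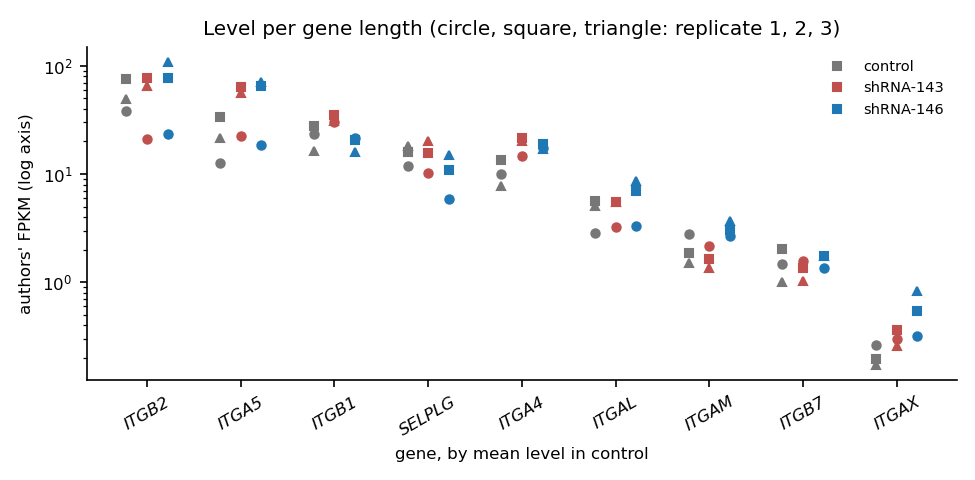
The authors' FPKM of each gene (log axis) in the 9 libraries, coloured by group, with genes ordered by their control mean and symbols giving the replicate number. ITGB2 is highest and ITGAX lowest in control, and the circles (replicate 1) lie below the other libraries of their group for ITGB2, ITGA5 and ITGAL.

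ITGA4 and ITGA5, the alpha chains among the 9 members that pair with ITGB1, were higher with either shRNA. In the fit with the block they were the only members of the 9 that passed against control with both constructs. Without the block no member passed in any of the 4 comparisons: the edgeR count was 0 for each shRNA, for their mean against control and for shRNA-146 against shRNA-143, where 0.0467%, 0.0334%, 0.0334% and 0.0467% of all tested genes passed. At an unadjusted p under 0.05 the members numbered 1, 3, 2 and 3 in these comparisons, against 6.8%, 8.81%, 9.34% and 3.75% of all genes. DESeq2 without the block called 0, 1, 1 and 0 members (background 0.942%, 1.05%, 1.32% and 0.594%), namely ITGAX with shRNA-146 and ITGA4 in the mean of both shRNAs. Limma-voom called 0 in each (background 0.0401%, 0.0267%, 0.0334% and 0.0534%), with 2, 3, 2 and 3 members at an unadjusted p under 0.05, against 6.85%, 9%, 9.3% and 3.86% of all genes. With the block, 2 members passed for shRNA-143, both up, where 3.17% of all genes passed and 1.6% were up. For shRNA-146 4 members passed, 3 up and 1 down (background 4.42%, with 2.46% up and 1.96% down). The mean of both shRNAs gave 2, both up (background 5.74%, with 2.98% up), and shRNA-146 against shRNA-143 gave 1, down (background 1.2%, with 0.421% down). At an unadjusted p under 0.05 the members with the block numbered 3, 6, 4 and 5, against 20.7%, 23.5%, 25.6% and 10.4% of all genes. With the block and scaling by library size the calls numbered 2, 2, 2 and 0 (background 2.76%, 5.58%, 5.73% and 1.24%), and with the block and an offset for gene length 2, 2, 2 and 1 (background 2.78%, 3.25%, 4.25% and 1.36%). DESeq2 with the block called 3, 5, 3 and 3 members (background 6.75%, 9.35%, 10.8% and 2.47%). These were the edgeR calls with the block and, beyond them, ITGB1 with shRNA-143, ITGAM with shRNA-146, ITGAX in the mean, and ITGAM and SELPLG between the shRNAs. Without the libraries numbered 1, edgeR called 2, 3, 3 and 1 members without the block (background 3.89%, 6.28%, 10.1% and 1.06%) and 3, 6, 3 and 2 with it (background 10.4%, 13.9%, 19.1% and 2.1%). The comparisons with control share the control libraries, so they do not bear on each other independently.

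ITGA4 (ENSG00000115232, chromosome 2, 181457202 to 181536187, plus strand, hg38), the alpha chain of VLA-4, rose by a log2 fold change of 0.85 ± 0.17 (SE; adjusted p = 0.0245, edgeR with the block) with shRNA-143 and 0.79 ± 0.16 (adjusted p = 0.0283) with shRNA-146, or 1.80-fold and 1.72-fold. In control replicates 1, 2 and 3 it stood at 79.0, 110 and 63.6 CPM. With shRNA-143 it stood at 118, 171 and 160 CPM, and with shRNA-146 at 141, 153 and 134. Every knockdown library lay above every control library. Groups did not overlap upwards for 7.09% of all tested genes with shRNA-143 and 7.25% with shRNA-146, and for 2 members each: ITGA4 and ITGB1, and ITGA4 and ITGAX. The fit without the block gave 0.83 ± 0.23 (adjusted p = 0.445) and 0.76 ± 0.23 (adjusted p = 0.432), which did not pass. The shRNAs differed by -0.06 ± 0.16 (adjusted p = 0.927).

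The calls of ITGA4 rested on most of the libraries being present. With the block and shRNA-143, the adjusted p was 0.0685, 0.0989 and 0.133 without control replicate 1, 2 or 3, and 0.128 and 0.183 without shRNA-143 replicate 2 or 3. With shRNA-146 it was 0.0755, 0.0834 and 0.144 without control replicate 1, 2 or 3, 0.0586 without shRNA-143 replicate 2 and 0.0505 without shRNA-146 replicate 2. In the mean of both shRNAs, 0.82 ± 0.15 (adjusted p = 0.0137), it was 0.0565, 0.0806 and 0.117 without each control library in turn. The direction was positive in all alternatives, from 0.59 to 1.07 over both shRNAs. Without the 3 libraries numbered 1, and with the block, ITGA4 was higher by 0.98 ± 0.17 (adjusted p = 0.0101) and 0.76 ± 0.17 (adjusted p = 0.0206). Without these libraries and without the block it passed with shRNA-143 (0.94 ± 0.22, adjusted p = 0.0423) and not with shRNA-146 (0.73 ± 0.22, adjusted p = 0.0683).

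ITGA5 (ENSG00000161638, chromosome 12, 54395261 to 54419460, minus strand), the alpha chain of the fibronectin receptor, rose by 1.01 ± 0.18 (2.02-fold, adjusted p = 0.0177) with shRNA-143 and 1.07 ± 0.18 (2.11-fold, adjusted p = 0.0119) with shRNA-146, in the fit with the block. Control replicates 1, 2 and 3 held 95.2, 260 and 169 CPM. The shRNA-143 libraries held 173, 482 and 427 CPM, and the shRNA-146 libraries 144, 501 and 539. The groups overlapped, because the libraries numbered 1 were low in every group, but within each number both knockdown libraries were above control. That order within all 3 numbers was met by 26.8% of all genes with shRNA-143 and 21.5% with shRNA-146, and by 4 of the 9 members with each. The fit without the block gave 1.05 ± 0.56 (adjusted p = 0.822) and 1.18 ± 0.56 (adjusted p = 0.596), which did not pass. The shRNAs differed by 0.06 ± 0.18 (adjusted p = 0.934).

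With the block, the ITGA5 call for shRNA-143 was lost without control replicate 2 (adjusted p = 0.102) or 3 (0.0811), and without shRNA-143 replicate 1 (0.0876), 2 (0.0964) or 3 (0.0882). The call for shRNA-146 was lost without control replicate 2 (0.0773) or 3 (0.0645), and that of the mean, 1.04 ± 0.16 (adjusted p = 0.00881), without the same libraries (0.0786 and 0.0732). Without the libraries numbered 1, ITGA5 passed also in the fit without the block, at 1.09 ± 0.19 (adjusted p = 0.0133) and 1.28 ± 0.20 (adjusted p = 0.00602). Long genes were higher with the shRNAs in general: the median log2 fold change of the mean of both shRNAs ran from -0.22 in the shortest of 5 equal length bins of genes to 0.19 in the longest. ITGA4 and ITGA5 have 7901 and 7577 exon bases, and with the block and an offset for gene length they still passed, at 0.74 ± 0.15 and 0.92 ± 0.17 with shRNA-143 (adjusted p = 0.0280 and 0.0205) and 0.65 ± 0.15 and 0.95 ± 0.17 with shRNA-146 (adjusted p = 0.0414 and 0.0157).

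**Figure D2:**
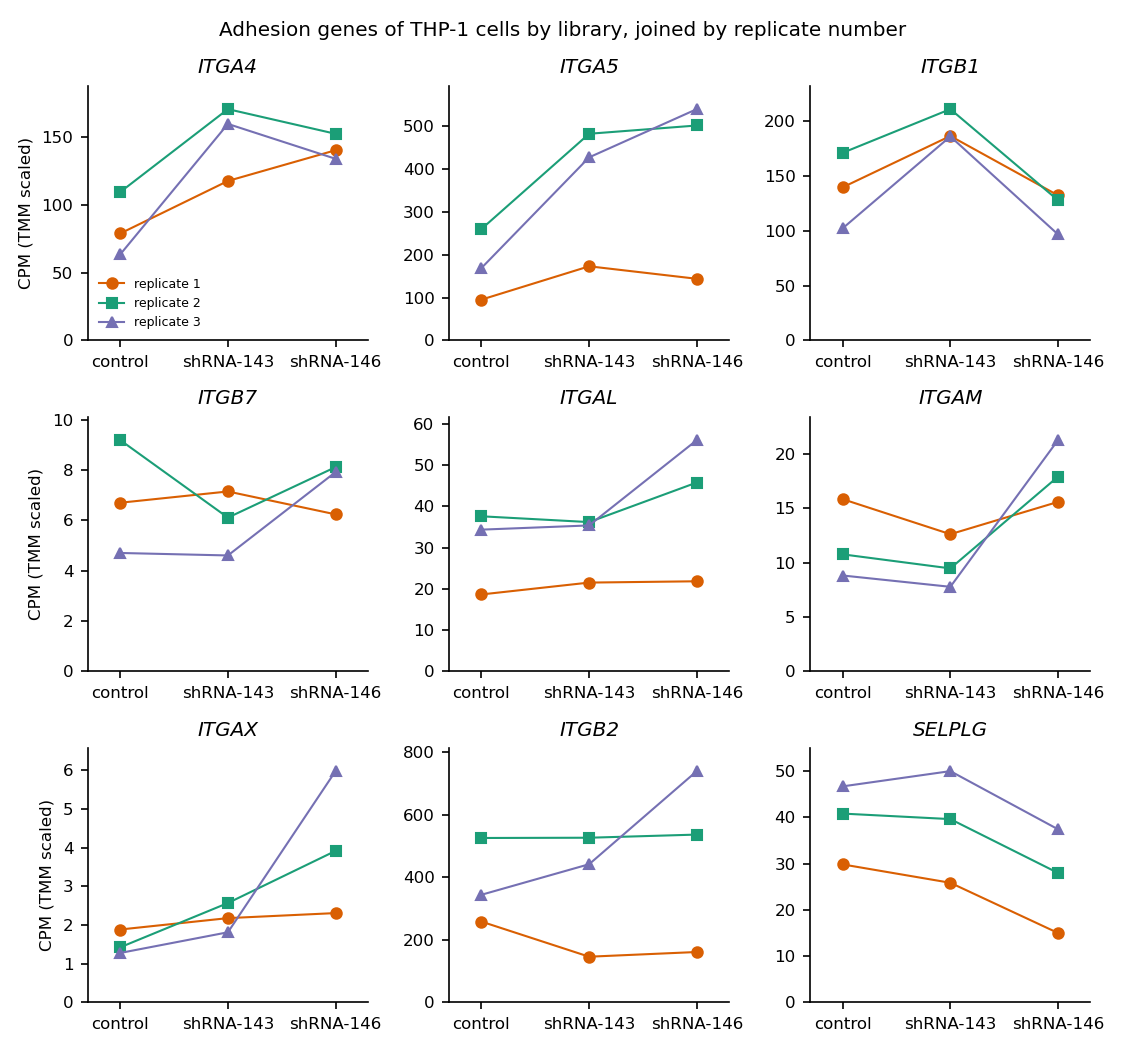
CPM of each gene by group, with lines joining the libraries that share a replicate number. ITGA4 and ITGA5 are higher in both knockdown libraries than in control at every number, ITGB1 is highest with shRNA-143, and SELPLG is lowest with shRNA-146.

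ITGB1 (ENSG00000150093, chromosome 10, 32900319 to 33005792, minus strand), the shared beta chain of both receptors, differed between the shRNAs. Control replicates 1, 2 and 3 held 140, 171 and 102 CPM. The shRNA-143 libraries held 186, 211 and 186 CPM, above all control libraries, and the shRNA-146 libraries 132, 128 and 96.7. With the block ITGB1 was 1.65-fold lower with shRNA-146 than with shRNA-143 (-0.72 ± 0.14, adjusted p = 0.0400), and these groups did not overlap, which held downwards for 3.69% of all genes. Against control the values were 0.53 ± 0.14 (adjusted p = 0.0748) with shRNA-143 and -0.20 ± 0.14 (adjusted p = 0.439) with shRNA-146, short of the threshold. Without the block the difference between the shRNAs was -0.71 ± 0.22 (adjusted p = 0.821).

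With the block, the difference in ITGB1 between the shRNAs passed without control replicate 3 (adjusted p = 0.0446) or shRNA-146 replicate 1 (0.0134). It was lost without control replicate 1 (0.0584) or 2 (0.109), shRNA-143 replicate 1 (0.118), 2 (0.190) or 3 (0.369), or shRNA-146 replicate 2 (0.229) or 3 (0.0613), and with scaling by library size (0.0733). The change with shRNA-143 against control passed without shRNA-146 replicate 1 (0.52 ± 0.12, adjusted p = 0.0176) or 3 (0.53 ± 0.14, adjusted p = 0.0360). These libraries are in neither group compared, but leaving them out alters the shared spread, the block effects, the scaling, the genes tested and the adjustment. In these fits 13.7% and 6.88% of all tested genes passed with shRNA-143, against 3.17% over all 9 libraries. The change with shRNA-143 also passed with DESeq2 and the block over all 9 libraries (0.54 ± 0.17, adjusted p = 0.0263) and, with edgeR and the block, without the libraries numbered 1 (0.59 ± 0.14, adjusted p = 0.0326). Without those libraries and without the block neither this change (adjusted p = 0.176) nor the difference between the shRNAs (-0.83 ± 0.23, adjusted p = 0.170) passed.

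ITGB7 (ENSG00000139626, chromosome 12, 53191318 to 53207307, minus strand), the other partner of ITGA4, was scarce and passed in no comparison. It stood at 6.71, 9.19 and 4.71 CPM in control, 7.15, 6.11 and 4.61 with shRNA-143 and 6.24, 8.12 and 7.92 with shRNA-146, so the groups overlapped. The changes with the block were -0.18 ± 0.23 (adjusted p = 0.684) and 0.16 ± 0.23 (adjusted p = 0.717). Of its 4481 exon bases, 1886 (42.1%) are shared with ZNF740 on the opposite strand, which held 730 to 1455 counts. No source used here says whether counting used strand, so the level of ITGB7 is uncertain.

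The balance of ITGA4 and ITGA5 against ITGB1 was higher in the knockdown libraries at each replicate number, but no ratio passed the adjusted test. The summed FPKM of ITGA4 and ITGA5 over that of ITGB1 was 0.971, 1.69 and 1.78 in control, 1.22, 2.43 and 2.47 with shRNA-143 and 1.67, 4.02 and 5.48 with shRNA-146. Within each replicate number it was lowest in control and highest with shRNA-146. As log2 ratios of counts, ITGA4 to ITGB1 was higher by 0.65 in the 6 knockdown libraries than in the 3 control libraries (exact two-sided permutation p = 0.0476), and ITGA4 to ITGB7 by 0.83 (exact permutation p = 0.0238). The other 4 ratios gave differences of 0.88 for ITGA5 to ITGB1 (exact permutation p = 0.262), 0.24 for ITGAL to ITGB2 (0.464), 0.22 for ITGAM to ITGB2 (0.714) and 0.92 for ITGAX to ITGB2 (0.107). None of the 6 passed after adjustment over the 6 ratios, where the smallest exact permutation value was 0.143. The 84 arrangements allow no raw p below 0.0119, so a single ratio at that floor could not pass after adjustment. With labels permuted only within a replicate number the smallest adjusted value was 0.148, and 27 arrangements allow no raw p below 0.037. ITGAX to ITGB2 was at that floor (exact permutation p = 0.037), and a single ratio could not pass there either. These tests therefore cannot decide on a ratio taken alone.

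**Figure D3:**
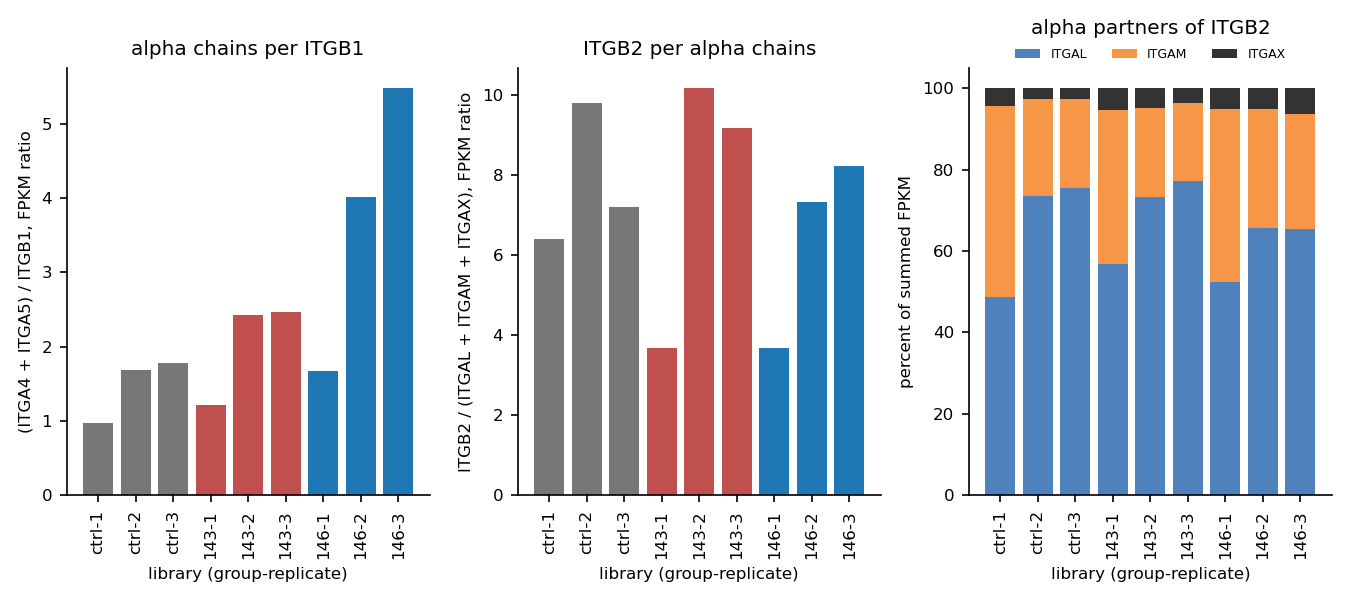
FPKM ratios in each library, coloured by group: ITGA4 plus ITGA5 over ITGB1 (left), ITGB2 over the sum of ITGAL, ITGAM and ITGAX (middle), and the shares of these 3 alpha chains in their sum (right). The left ratio reaches 5.48 in shRNA-146 replicate 3, and the share of ITGAL is lowest, at 48.6% to 56.8%, in the libraries numbered 1.

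Among the chains that pair with ITGB2, ITGAX passed with shRNA-146, and ITGAL, ITGAM and ITGB2 did not pass against control. ITGAX (ENSG00000140678, chromosome 16, 31355134 to 31382997, plus strand), also known as CD11c and a marker of dendritic cells and mature monocytes, held 1.89, 1.43 and 1.28 CPM in control, from 70, 60 and 47 counts. With shRNA-143 it held 2.18, 2.57 and 1.81 CPM, and with shRNA-146 2.31, 3.92 and 5.98 CPM, from 91, 191 and 286 counts. All shRNA-146 libraries were above all control libraries, with folds of 1.23, 2.75 and 4.67 within numbers 1, 2 and 3. With the block ITGAX rose by 1.37 ± 0.34 (2.59-fold, adjusted p = 0.0484) with shRNA-146, against 1.41 ± 0.36 (adjusted p = 0.369) without it. With shRNA-143 the value was 0.51 ± 0.34 (adjusted p = 0.430), and the shRNAs differed by 0.87 ± 0.33 (adjusted p = 0.365).

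The ITGAX call for shRNA-146 passed, with the block, only when the library left out was shRNA-146 replicate 1 (1.77 ± 0.28, adjusted p = 0.00497). In that fit 11.4% of all tested genes passed with shRNA-146, against 4.42% over all 9 libraries. Without control replicate 1, 2 or 3 the adjusted p was 0.0634, 0.183 and 0.263, without shRNA-143 replicate 1, 2 or 3 it was 0.0687, 0.0749 and 0.0637, and without shRNA-146 replicate 2 it was 0.101. Without shRNA-146 replicate 3 the change was 0.88 ± 0.30 (adjusted p = 0.132). Scaling by library size (0.0620) and an offset for gene length (0.0674) also ended the call. Without shRNA-146 replicate 1 the mean of both shRNAs (1.15 ± 0.23, adjusted p = 0.00958) and the difference between them (1.24 ± 0.27, adjusted p = 0.0388) passed as well. For these comparisons 20.1% and 2.24% of all tested genes passed in that fit, against 5.74% and 1.2% over all 9 libraries. Without the libraries numbered 1 the change with shRNA-146 was 1.87 ± 0.30 (adjusted p = 0.00713) without the block and 1.87 ± 0.29 (adjusted p = 0.00528) with it.

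ITGAM (ENSG00000169896, chromosome 16, 31259967 to 31332892, plus strand), the alpha chain of Mac-1, held 15.8, 10.8 and 8.82 CPM in control and 12.6, 9.47 and 7.78 with shRNA-143. With shRNA-146 it held 15.6, 17.9 and 21.3 CPM. The shRNA-146 libraries lay above all shRNA-143 libraries, an order met upwards by 4.49% of all genes, but overlapped control through replicate 1. With the block the difference between the shRNAs was 0.92 ± 0.23 (adjusted p = 0.0964), and the values against control were -0.24 ± 0.22 (adjusted p = 0.580) and 0.68 ± 0.23 (adjusted p = 0.105). DESeq2 with the block over all 9 libraries gave 0.92 ± 0.24 between the shRNAs (adjusted p = 0.00643) and 0.69 ± 0.24 for shRNA-146 against control (adjusted p = 0.0383), which passed. Leaving out shRNA-146 replicate 1 brought the difference to 1.21 ± 0.16 (adjusted p = 0.00293) and shRNA-146 against control to 0.98 ± 0.16 (adjusted p = 0.00572). In that fit 2.24% and 11.4% of all tested genes passed, against 1.2% and 4.42% over all 9 libraries. Without all 3 libraries numbered 1 the difference was 1.19 ± 0.17 (adjusted p = 0.00519) with the block. The change against control was then 1.01 ± 0.17 (adjusted p = 0.00644). Both also passed without the block (adjusted p = 0.00980 and 0.0131).

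ITGAL (ENSG00000005844, chromosome 16, 30472658 to 30523185, plus strand), the alpha chain of LFA-1, held 18.7, 37.6 and 34.4 CPM in control, 21.5, 36.2 and 35.4 with shRNA-143 and 21.9, 45.8 and 56.1 with shRNA-146. The groups overlapped, and the libraries numbered 1 were the lowest of each. Its changes with the block were 0.07 ± 0.15 (adjusted p = 0.842) and 0.41 ± 0.15 (adjusted p = 0.133). The latter passed only without shRNA-146 replicate 1 (0.53 ± 0.13, adjusted p = 0.0312) or without all libraries numbered 1 (0.50 ± 0.14, adjusted p = 0.0379). In these fits 11.4% and 13.9% of all tested genes passed with shRNA-146, against 4.42% over all 9 libraries.

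ITGB2 (ENSG00000160255, chromosome 21, 44885953 to 44931989, minus strand), their common beta chain, held 258, 526 and 344 CPM in control, 146.1, 526 and 442 with shRNA-143 and 161, 536 and 739 with shRNA-146. The spread within a group exceeded any difference between groups, and the folds over control within numbers 1, 2 and 3 went from 0.566 to 1.002 and 1.28 with shRNA-143 and from 0.624 to 1.02 and 2.15 with shRNA-146. The changes with the block were -0.20 ± 0.26 (adjusted p = 0.700) and 0.13 ± 0.27 (adjusted p = 0.806). ITGAL made up 48.6%, 56.8% and 52.4% of the summed FPKM of the 3 alpha chains in the libraries numbered 1 of control, shRNA-143 and shRNA-146, and 65.4% to 77.1% in the other libraries. ITGB2 over that sum ran from 3.67 to 10.2, lowest in the knockdown libraries numbered 1.

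SELPLG (ENSG00000110876, chromosome 12, 108622277 to 108633959, minus strand) fell with shRNA-146. It held 29.8, 40.8 and 46.7 CPM in control, 25.8, 39.6 and 50.0 with shRNA-143 and 15, 28.0 and 37.4 with shRNA-146. The groups overlapped, but within numbers 1, 2 and 3 the shRNA-146 libraries were at 0.503, 0.686 and 0.801 of control, an order met downwards by 19.8% of all genes. With the block the change with shRNA-146 was -0.61 ± 0.15 (1.53-fold lower, adjusted p = 0.0455), and without it -0.54 ± 0.36 (adjusted p = 0.724). With shRNA-143 the value was -0.06 ± 0.15 (adjusted p = 0.870), and the shRNAs differed by -0.56 ± 0.15 (adjusted p = 0.132).

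The SELPLG call passed without shRNA-146 replicate 1 (adjusted p = 0.0366) or 3 (0.0407), with the block. In these fits 11.4% and 2.16% of all tested genes passed with shRNA-146, against 4.42% over all 9 libraries. The call was lost without control replicate 1, 2 or 3 (0.139, 0.158 and 0.101), shRNA-143 replicate 1, 2 or 3 (0.0587, 0.102 and 0.0837) or shRNA-146 replicate 2 (0.110). It was also lost with scaling by library size (0.131) and with an offset for gene length (0.109). Without the libraries numbered 1 it passed with the block (-0.43 ± 0.12, adjusted p = 0.0431) and not without it (-0.42 ± 0.18, adjusted p = 0.153). DESeq2 with the block also called the difference between the shRNAs (-0.57 ± 0.18, adjusted p = 0.0489). SELPLG has 2494 exon bases, the fewest of the 9 genes.

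**Figure D4:**
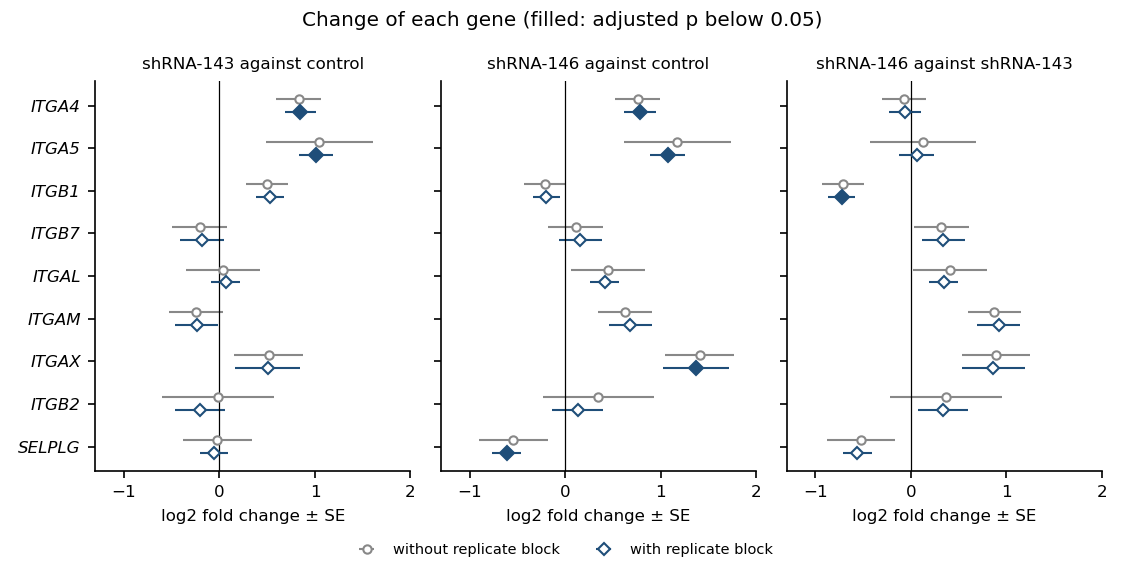
Log2 fold change ± SE of each gene in 3 comparisons, without (grey circles) and with (blue diamonds) the replicate block; filled symbols passed at an adjusted p below 0.05. Only values with the block are filled: ITGA4 and ITGA5 with both shRNAs, ITGAX and SELPLG with shRNA-146, and ITGB1 between the shRNAs.

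The median log2 fold change of the 9 members with the block was 0.07 with shRNA-143 and 0.41 with shRNA-146, against 0.00 and 0.02 over all tested genes, with 5 and 7 members above 0. With the block and the offset for gene length the member medians were 0.07 and 0.32, against 0.007 and 0.011 over all tested genes. The genes whose centred log2 CPM profile over the 9 libraries was most like that of a member were PPM1E for ITGA4 (root mean square difference 0.147), GOLGA1 for ITGA5 (0.162), IL10RA for ITGAX (0.257), EDEM1 for ITGB1 (0.154) and TUBG2 for SELPLG (0.118). The median difference of all tested genes from these members was 0.620, 0.943, 0.771, 0.550 and 0.644.

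Other genes of the pathway were read from the same fits. Without the block no gene of the 4 lists below passed with edgeR. Of 18 other integrin subunits 10 were tested and 0 passed with the block, with 2, 3, 2 and 1 at an unadjusted p under 0.05 in the 4 comparisons, where 20.7%, 23.5%, 25.6% and 10.4% of all genes were. Their median changes were 0.10 with shRNA-143 and 0.25 with shRNA-146.

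Of 42 genes that activate integrins or link them to actin and signalling, 40 were tested, and 2 rose and 1 fell with each shRNA in the fit with the block, where 3.17% of all genes passed with shRNA-143 and 4.42% with shRNA-146. CRK, an adaptor below focal adhesions, rose with both, by 0.83 ± 0.13 (adjusted p = 0.00989) and 1.004 ± 0.13 (adjusted p = 0.00532), from 35.6, 32.2 and 27.3 CPM in control to 67.5, 54.1 and 48.1 and to 83.2, 57.4 and 52.8. All knockdown libraries lay above all control libraries for CRK, an order met by 7.09% of all genes with shRNA-143 and 7.25% with shRNA-146. RASSF5, also called RAPL, which joins active RAP1 to LFA-1, fell with shRNA-143 by 1.20 ± 0.13 (adjusted p = 0.00191), from 25.3, 37.5 and 30.3 CPM to 11.1, 16.6 and 12.8. With shRNA-146 RASSF5 held 20.8, 36.4 and 28.98 CPM, overlapping control, and it was 1.07 ± 0.13 above shRNA-143 (adjusted p = 0.00399). PTK2, the focal adhesion kinase, rose with shRNA-146 by 1.59 ± 0.30 (adjusted p = 0.0195) from a low 0.619, 1.16 and 0.599 CPM to 2.28, 2.81 and 2.03. With shRNA-143 PTK2 was at 0.79 ± 0.31 (adjusted p = 0.184), and the shRNAs differed by 0.80 ± 0.29 (adjusted p = 0.327). TNS1, a tensin that ties integrin tails to actin, rose with shRNA-143 (1.05 ± 0.22, adjusted p = 0.0317) and was at 0.86 ± 0.22 (adjusted p = 0.0532) with shRNA-146. CIB1, an integrin-binding calcium sensor, fell with shRNA-146 (-0.62 ± 0.15, adjusted p = 0.0438) and was at -0.61 ± 0.15 (adjusted p = 0.0519) with shRNA-143. Neither TNS1 nor CIB1 passed between the shRNAs (adjusted p = 0.804 and 0.991), and both passed in their mean (adjusted p = 0.0235 for each).

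Of 25 integrin and selectin ligands and counter-receptors 11 were tested, and 1 passed, with shRNA-146 (4.42% of all genes). ICAM1, the ligand of LFA-1 and Mac-1, held 0.727, 1.88 and 0.735 CPM in control and 1.38, 1.80 and 0.939 with shRNA-143. With shRNA-146 ICAM1 held 2.01, 4.68 and 3.85 CPM, above all control libraries, an order met upwards by 7.25% of all genes. ICAM1 rose by 1.71 ± 0.31 (adjusted p = 0.0160) with shRNA-146. The shRNAs differed by 1.33 ± 0.31 (adjusted p = 0.0731).

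Of 30 other selectin ligand scaffolds and enzymes that build the selectin-binding glycans, 28 were tested, with 2 up and 1 down for shRNA-143 and 4 up for shRNA-146 (3.17% and 4.42% of all genes). ST3GAL1, which caps core O-glycans with sialic acid, rose by 0.78 ± 0.17 (adjusted p = 0.0339) and 0.99 ± 0.17 (adjusted p = 0.0119), and GALNT3, which starts O-glycans, by 1.38 ± 0.31 (adjusted p = 0.0414) and 1.31 ± 0.31 (adjusted p = 0.0421). B4GALT1, a galactosyltransferase, moved in opposite directions: it held 50.9, 47.2 and 43.3 CPM in control, 38.0, 31.3 and 27.9 with shRNA-143 and 82.3, 67.6 and 56.7 with shRNA-146. B4GALT1 changed by -0.55 ± 0.13 (adjusted p = 0.0432) with shRNA-143 and 0.53 ± 0.13 (adjusted p = 0.0417) with shRNA-146, with 1.08 ± 0.13 between the shRNAs (adjusted p = 0.00288). CHST4, a sulfotransferase of L-selectin ligands, rose with shRNA-146 (0.80 ± 0.17, adjusted p = 0.0283). With shRNA-143 CHST4 was at 0.56 ± 0.17 (adjusted p = 0.102), and the shRNAs differed by 0.24 ± 0.17 (adjusted p = 0.676). FUT7, the fucosyltransferase that finishes sialyl Lewis X, fell in the mean of both shRNAs (-0.81 ± 0.21, adjusted p = 0.0469). FUT7 held 7.16, 4.63 and 8.001 CPM in control, 4.10, 3.88 and 4.19 with shRNA-143 and 2.23, 3.55 and 4.52 with shRNA-146. With the block and scaling by library size, the calls of FUT7 in the mean, CIB1 with shRNA-146, and B4GALT1 and TNS1 with shRNA-143 were lost. With the block and the offset for gene length, those of FUT7 in the mean, CIB1 with shRNA-146 and ST3GAL1 with shRNA-143 were lost.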

How the data were processed

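RNA-seq of 9 THP-1 libraries, 3 per group, was used. The authors deposited raw counts per gene for 58735 Ensembl identifiers, all in GENCODE 29, and per-shRNA tables with FPKM, size-factor normalized signal, log2 fold changes and p-values, per the file headers. Of these, the counts and the authors' FPKM were used for results, and the authors' deposited log2 fold changes and p-values were not printed. Fastp, STAR 2.5, featureCounts, DESeq2 and hg38 are named, without roles, per the submitters' processing notes. How overlapping genes and strand were counted is stated in none of the sources used. Member counts were equal in all tables.

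Genes kept by filterByExpr were tested with edgeR 4.0.16 (TMM, robust quasi-likelihood) on R 4.3.3, in one fit of 9 libraries and 3 group means with 6 residual degrees of freedom, or 4 with the replicate number as a block. DESeq2 1.42.0 and limma 3.58.1 (voom), other scalings, no filter, an offset for gene length (loess span 0.5), fits of only the groups compared and leaving out each library were alternatives. Leaving out the libraries numbered 1 was added after seeing the data. The code was tested on simulated counts. Ratios used log2 of counts plus 0.5. No library repeated another (chi-square over its degrees of freedom 22.4 to 432 within groups).

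Replicate numbers come from the titles, without a stated meaning. Deviations from group means correlated at 0.252 to 0.758 in the 9 pairs with the same number and at -0.678 to 0.535 otherwise, and 9 of 9 libraries matched best with their own number, so the pairing rests on the data. The first principal component (58.1% of variance) set the libraries numbered 1 apart.

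The members and gene lists were chosen with earlier results of these data known. All 9 members are described. Of each list, up to 6 genes that passed in any comparison, without or with the block, are named, by smallest p. The nearest profile is given for members that passed. Coordinates and lengths are those deposited, and promoters are from RefSeq on GRCh38.p14.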

Additional observations from a re-analysis of the deposited data

Results flagged for a closer look

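With the replicate block, ITGB1 differed between the knockdown groups in a direct test, with shRNA-146 below shRNA-143 by a log2 difference of -0.72 (adjusted p = 0.0400, edgeR). It was lower in 3 of 3 replicate numbers, and the groups did not overlap, which held downwards for 3.69% of all genes. Without the block the difference did not pass (adjusted p = 0.821). With the block it passed in 2 of the 9 fits that left out a library, and was lost with scaling by library size.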

How the results depend on the processing

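Without the block, edgeR called 0 members in each comparison under every scaling and with each library left out in turn. At most 0.107% and 0.183% of all genes passed in these fits. No alpha to beta ratio passed under any setting, but the few arrangements barred a single ratio from passing after adjustment. In the order shRNA-143, shRNA-146, mean of both, shRNA-146 against shRNA-143, the counts of members called were 2, 4, 2 and 1 with the replicate block, 2, 2, 2 and 0 with the block and library size scaling, 2, 2, 2 and 1 with the block and gene length offsets, and 3, 5, 3 and 3 with the block and DESeq2. They were 0, 1, 1 and 0 with DESeq2, and without the libraries numbered 1 they were 2, 3, 3 and 1, or 3, 6, 3 and 2 with the block. With each library left out in turn and the block they ranged from 0 to 3, 0 to 6, 0 to 3 and 0 to 3, while the share of all genes called ranged from 0.359% to 13.7%, 0.176% to 11.4%, 0.0912% to 20.1% and 0.202% to 2.24%. Leaving out a library, without or with the block, leaves its group with fewer libraries. The spread is then estimated from all remaining libraries together.

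The sign changed only for values that passed under no setting. Over the libraries left out in turn, without and with the block, ITGB2 ranged from -0.53 to 0.36 with shRNA-143, -0.23 to 0.76 with shRNA-146, -0.38 to 0.49 in the mean and -0.091 to 0.78 between the shRNAs. ITGB7 ranged from -0.42 to 0.053 with shRNA-143, -0.11 to 0.39 with shRNA-146 and -0.26 to 0.22 in the mean. With shRNA-143 the ranges were -0.21 to 0.24 for ITGAL, -0.45 to 0.022 for ITGAM and -0.26 to 0.19 for SELPLG. In the mean they were -0.0098 to 0.44 for ITGAL and -0.033 to 0.33 for ITGB1, and between the shRNAs -0.22 to 0.12 for ITGA4 and -0.20 to 0.53 for ITGA5.

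Under other settings, ITGAL with shRNA-143 was -0.032 with gene length offsets, -0.0058 with these and the block, and -0.0014 and -0.0022 without the libraries numbered 1, without and with the block. ITGB2 with shRNA-143 was 0.11 with library size scaling, 0.0023 with median-of-ratios scaling and with DESeq2, and 0.16 and 0.17 without the libraries numbered 1. In the mean ITGB2 was -0.034 with the block, -0.0041 with limma-voom, -0.028 with the block and DESeq2 and -0.12 with the block and length offsets. ITGB7 in the mean was 0.053 with library size scaling and 0.10 with the block added. SELPLG with shRNA-143 was 0.094 with library size scaling, 0.13 with length offsets, 0.034 and 0.075 with the block added to each, and 0.041 and 0.033 without the libraries numbered 1. The cause was not tested. Library size scaling moved the median of all genes with shRNA-146 from 0.05 to 0.19 on the log2 scale.

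The replicate numbers have no stated meaning, and every edgeR call made here over all 9 libraries needs them as a block, with 4 residual degrees of freedom. ITGAX (47 to 286 counts per library), ICAM1 (27 to 228), PTK2 (22 to 137) and GALNT3 (13 to 98) rest on few counts.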
